A study of Drosophila melanogaster with 12 samples.

Results

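The genes described here encode 10 enzymes of glycolysis, measured in heads of Drosophila melanogaster by RNA-seq of transcript 3' ends: Hex-A, Hex-C, Pgi, Pfk, Ald1, Tpi, Gapdh1, Gapdh2, Eno and Pyk. They were chosen by name, as enzymes that carry glucose to pyruvate, and are 10 of the 13759 genes of the deposited table. All 10 passed the minimum mean of 10 normalized reads and were among the 6552 genes tested. Flies of a Canton-S background were kept for 18 h with 0, 25, 50 or 100% sucrose. The libraries labelled cabut RNAi came from flies with the driver Tim-gal4 and a UAS-cbt RNAi transgene, and there were 8 of them, 2 at each concentration. The control libraries came from flies labelled +/cbtE1-UAS-cbt RNAi, which carried the RNAi transgene with no driver, and there were 4, 1 at each concentration. Because the controls lacked the driver, an effect of Tim-gal4 itself and an effect of the RNAi cannot be told apart. Tim-gal4 follows the promoter of the clock gene timeless, whereas whole heads were sampled.

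Glycolysis splits glucose into pyruvate in the cytosol and yields ATP and NADH. Hexokinase traps the sugar, phosphofructokinase commits it, aldolase cuts it into a pair of triose phosphates, and the enzymes from glyceraldehyde phosphate dehydrogenase to pyruvate kinase recover energy from them. In the fly head glycolysis is active in glia, which can pass its products to neurons, as well as in muscle and in the fat body; cabut is a transcription factor that responds to sugar.

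Between 511487 and 1859280 reads per library were recovered when 1 transcript row was kept per gene, and the control library at 100% sucrose was the shallowest. Values are reads scaled by the authors with a single factor per library, called normalized reads here; a transcript's 3' reads were not divided by its length, so levels are compared between libraries and never between genes. In the targeted gene, cbt, the 8 libraries labelled cabut RNAi held a lowest, median and highest value of 102, 150.2 and 202 normalized reads, against 93.5, 113 and 139 normalized reads in the 4 control libraries. The cbt values overlapped and were not lower under the RNAi label, so the groups are named by their labels throughout. The labels do not state whether replicate libraries stem from different vials or extractions, and the p-values given here reflect the variation among these libraries alone, which could be technical. The member genes together held 0.746 to 0.805% of reads in libraries labelled cabut RNAi, against 0.559 to 0.661% in control libraries, without overlap. On the authors' scale their summed level was 6920.4 to 7868 normalized reads in libraries labelled cabut RNAi, against 6258 to 7418 in control libraries, and these ranges overlapped.

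Against the control libraries, 3 of the 10 glycolytic genes differed by label at matched sucrose: Ald1 and Gapdh1 were higher and Hex-C was lower in libraries labelled cabut RNAi. The other 7 did not pass the test, among them Hex-A and Gapdh2, the paralogs of Hex-C and Gapdh1. Each gene was tested with limma on log2(normalized reads + 1), with sucrose concentration as a factor and Benjamini-Hochberg adjustment over all 6552 genes at a threshold of 0.05. By that rule 15.5% of all tested genes were called, 6.78% (444 genes) higher and 8.71% (571 genes) lower, which is the background for the count of 3 in 10. The median log2 difference of the 10 genes was 0.10, against 0.01 for all tested genes. Where the values of a gene are said not to overlap between labels, the share of all tested genes that do likewise was not counted. In whole heads, fewer cells of a type and less RNA per cell cannot be told apart.

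**Figure D1:**
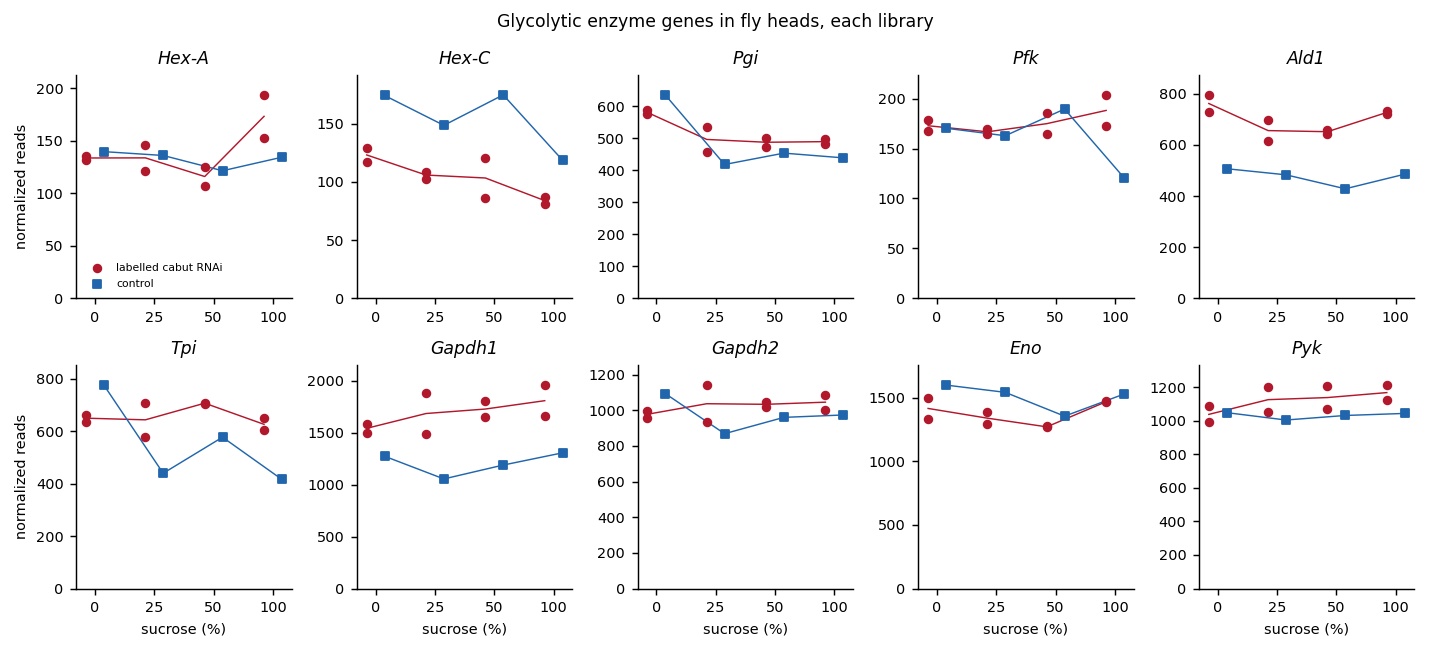
Normalized reads (vertical axes, starting at 0) of each glycolytic gene by sucrose concentration (percent, evenly spaced categories) in libraries labelled cabut RNAi (red circles, lines through their means) and control libraries (blue squares, 1 per concentration). Ald1 and Gapdh1 lie above the control library at every concentration, Hex-C and Eno lie below it, and the control values of Pgi and Tpi are highest without sucrose, at 635 and 776 normalized reads.

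Hexokinase, which phosphorylates glucose on entry, is encoded by Hex-A (chromosome X, 9479918-9482437; all coordinates are those of the deposited transcripts in build dm3) and Hex-C (chromosome 2R, 11106340-11107917), among others. Hex-C held 117 and 129 normalized reads without sucrose in libraries labelled cabut RNAi, 103 and 109 at 25%, 86.2 and 120.4 at 50%, and 80.6 and 87.2 at 100%. The control libraries held 174 normalized reads of Hex-C without sucrose, 149 at 25%, 175 at 50% and 119 at 100%. At each concentration both libraries labelled cabut RNAi lay below the control library, although the full ranges overlapped because the control value at 100% was low. The label difference of Hex-C was -0.56 ± 0.11 (log2, SE), a 1.48-fold lower level, with a limma adjusted p of 8.69e-04.

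Hex-A did not pass the test between labels. Its lowest, median and highest values were 107, 134 and 194 normalized reads in libraries labelled cabut RNAi, against 121 to 139.6 normalized reads in the control libraries. The control range lay within the cabut RNAi range, and the label difference was 0.05 ± 0.11 (log2, SE; 95% interval -0.18 to 0.27; limma adjusted p = 0.833). The ratio of Hex-C to Hex-A reads within a library, in which any scaling cancels, averaged 0.781 ± 0.23 in libraries labelled cabut RNAi and 1.17 ± 0.24 in control libraries (SD, n = 8 and n = 4). Ratios were chosen for testing after their values were seen. This one differed between labels by -0.61 on the log2 scale (two-sided exact permutation of labels within concentration, p = 0.0123, the smallest that the 81 arrangements allow; adjusted p = 0.0370 over 6 ratio tests). Without the control library at 0% or that at 100% sucrose the p was 0.0741.

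Pgi (chromosome 2R, 4798407-4801631) encodes the isomerase that turns glucose phosphate into fructose phosphate, and Pfk (chromosome 2R, 5997245-6004696) encodes phosphofructokinase, which commits the sugar to glycolysis. Neither passed the test between labels. The label differences were 0.09 ± 0.08 for Pgi (95% interval -0.08 to 0.26; limma adjusted p = 0.508) and 0.14 ± 0.11 for Pfk (95% interval -0.09 to 0.37; limma adjusted p = 0.451), both on the log2 scale with SE. Pfk held 164 to 204 normalized reads in libraries labelled cabut RNAi, against 121 to 189.5 in control libraries. The control library at 100% sucrose, the shallowest, gave the lowest Pfk value, and without it the difference was -0.02.

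Ald1 (chromosome 3R, 22080404-22087313) encodes the aldolase that cuts fructose bisphosphate. Its most abundant transcript row held 729 and 796 normalized reads without sucrose in libraries labelled cabut RNAi, 698 and 615 at 25%, 644 and 660.2 at 50%, and 734 and 721 at 100%. In the control libraries the same row held 507, 483, 429 and 486 normalized reads at 0, 25, 50 and 100%. The lowest library labelled cabut RNAi lay above the highest control library. Ald1 was 1.47-fold higher by label (log2 difference 0.55 ± 0.07, SE; limma adjusted p = 2.24e-05).

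Tpi (chromosome 3R, 25958698-25960321) encodes triose phosphate isomerase, which interconverts the products of aldolase. It held 663 and 637 normalized reads without sucrose in libraries labelled cabut RNAi, 578 and 709.5 at 25%, 708 and 706 at 50%, and 649 and 603 at 100%. In control libraries Tpi held 776 normalized reads without sucrose, 439.7 at 25%, 577 at 50% and 416 at 100%. With sucrose, every library labelled cabut RNAi lay above every control library, at the closest 578 against 577 normalized reads; without sucrose both lay below it. Over all concentrations the label difference of 0.29 ± 0.11 (log2, SE) did not pass, with a limma adjusted p of 0.0777. It passed in 4 of 27 alternatives, among them without the control library at 0% sucrose (0.47, adjusted p = 0.00165) and without replicate 2 of cabut RNAi at 0% (0.33, adjusted p = 0.0441).

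Gapdh1 (chromosome 2R, 3679403-3680885) and Gapdh2 (chromosome X, 15762336-15763695) are paralogs that encode glyceraldehyde phosphate dehydrogenase, the step that reduces NAD. Gapdh1 held 1501 and 1585 normalized reads without sucrose in libraries labelled cabut RNAi, 1492 and 1879.8 at 25%, 1648 and 1809.9 at 50%, and 1959.6 and 1659 at 100%. In control libraries it held 1274, 1056, 1189 and 1307 normalized reads at 0, 25, 50 and 100%. The groups did not overlap, and Gapdh1 was 1.40-fold higher by label (log2 difference 0.49 ± 0.08, SE; limma adjusted p = 3.21e-04).

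Gapdh2 averaged 1023 ± 68.0 normalized reads in libraries labelled cabut RNAi and 974 ± 92.5 in control libraries (SD, n = 8 and n = 4), with overlapping ranges. Its label difference was 0.07 ± 0.08 (log2, SE; 95% interval -0.10 to 0.24; limma adjusted p = 0.622). The ratio of Gapdh1 to Gapdh2 reads ran from 1.51 to 1.95 in the 8 libraries labelled cabut RNAi and from 1.17 to 1.34 in the 4 control libraries, and these ranges did not overlap. It differed by 0.41 on the log2 scale (two-sided exact permutation within concentration, p = 0.0123, the smallest possible; adjusted p = 0.0370 over the 6 ratio tests). With sucrose against none, over both labels, the log2 ratio differed by 0.10 for Gapdh1 to Gapdh2 and by -0.28 for Hex-C to Hex-A, and neither passed (two-sided exact permutation within label, p = 0.143 and p = 0.286). No member's reads were identical to those of another gene in every library. How reads shared between the paralogs were assigned is not given in the sources used here, so their split is uncertain.

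Neither gene of the final steps passed between labels. Eno (chromosome 2L, 1724971-1727713) encodes enolase, and Pyk (chromosome 3R, 18194930-18198457) encodes pyruvate kinase, which forms pyruvate and ATP. Eno had a lowest, median and highest value of 1266, 1360.3 and 1496 normalized reads in libraries labelled cabut RNAi, against 1355, 1535 and 1599.6 in control libraries. Both libraries labelled cabut RNAi lay below the control library at each of the 4 concentrations, yet the difference of -0.13 ± 0.07 (log2, SE; 95% interval -0.28 to 0.01) did not pass (limma adjusted p = 0.222) and was positive under quantile normalization and under scaling to equal total reads. Pyk averaged 1117 ± 82.2 normalized reads in libraries labelled cabut RNAi and 1031 ± 19.7 in control libraries (SD, n = 8 and n = 4), a difference of 0.11 ± 0.07 (log2, SE; limma adjusted p = 0.367). Over the 12 libraries the SD of log2 normalized reads was 0.102 for Pyk, 0.110 for Gapdh2 and 0.116 for Eno, at percentiles 1.85, 2.70 and 3.86 of the 2330 genes whose mean reached 50 normalized reads. At the other end, Hex-C stood at percentile 86.0 and Ald1 at 73.1.

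The label calls of Hex-C, Ald1 and Gapdh1 kept their direction and passed under each of the 27 alternatives tried, which included edgeR and DESeq2 on the recovered reads and leaving out each library. Where every distinct transcript row was tested, the Ald1 call was that of its most abundant row. Its rows RE and RH did not pass there (limma adjusted p = 0.705 and 0.707). With all distinct Ald1 rows summed its difference was 0.29 (adjusted p = 0.0410). That sum takes in the rows RE and RH, with nearly the same values (means of 335 and 346 normalized reads). Both read the upstream 3' end of Ald1 described below, so the sum counts that end more than once. The scaling changed how many genes joined Hex-C, Ald1 and Gapdh1. When libraries were scaled to equal total reads, the median label difference of all tested genes was 0.21 rather than 0.01, the calls were 1327 higher and 305 lower rather than 444 and 571, and 24.9% of genes were called. On that scale 8 of the 10 glycolytic genes passed, 7 of them higher: Pgi at 0.30, Pfk at 0.35, Ald1 at 0.76, Tpi at 0.50, Gapdh1 at 0.70, Gapdh2 at 0.28 and Pyk at 0.32 (log2). Hex-C was again lower, at -0.35. Over the libraries with sucrose 8 passed on that scale as well, where 22% of genes were called, and under quantile normalization 5 passed over all concentrations, where 14.3% were called.

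With sucrose and without it, the label contrast was also fitted separately. Over the 25, 50 and 100% libraries 4 glycolytic genes passed: Tpi joined the set, and 15.4% of all tested genes were called. Tpi averaged 659 ± 58.3 normalized reads with sucrose in libraries labelled cabut RNAi and 478 ± 87.0 in control libraries (SD, n = 6 and n = 3), a log2 difference of 0.47 ± 0.08 (limma adjusted p = 2.76e-03). Gapdh1 differed by 0.56 ± 0.10 (adjusted p = 2.18e-03), Ald1 by 0.54 ± 0.08 (adjusted p = 6.90e-04) and Hex-C by -0.58 ± 0.12 (adjusted p = 5.48e-03), by the same limma fit. The Hex-C call was lost with DESeq2 (adjusted p = 0.0953) and without the control library at 50% sucrose (adjusted p = 0.0503).

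Among the 9 libraries with sucrose, Pgi and Pyk values also did not overlap between labels, without passing the test. The share of all tested genes with such ranges was not counted. Pgi held 457 to 535 normalized reads in libraries labelled cabut RNAi, against 418 to 453 in control libraries, a log2 difference of 0.17 ± 0.08 (limma adjusted p = 0.194). Pyk held 1052 to 1212 normalized reads in libraries labelled cabut RNAi, against 1004 to 1043 in control libraries, a log2 difference of 0.15 ± 0.08 (limma adjusted p = 0.260).

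Without sucrose, where 2 libraries labelled cabut RNAi were set against 1 control library, 3.28% of all genes and only Ald1 of the 10 were called, at 0.59 ± 0.13 (log2, SE; limma adjusted p = 0.0398). That call is fragile: it was lost in 10 of 25 alternatives, among them edgeR (adjusted p = 0.0525) and leaving out any library labelled cabut RNAi other than those at 25% sucrose, and summing all distinct Ald1 transcript rows, where the value was -0.12. Hex-C differed by -0.50 ± 0.20 (limma adjusted p = 0.214), Gapdh1 by 0.28 ± 0.17 (adjusted p = 0.429) and Tpi by -0.26 ± 0.15 (adjusted p = 0.406). The summed Ald1 rows count its upstream end more than once, as said above. The control spread at each concentration was not measured, since each had 1 library, and the fit assumes that it equals that of the replicated groups.

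**Figure D2:**
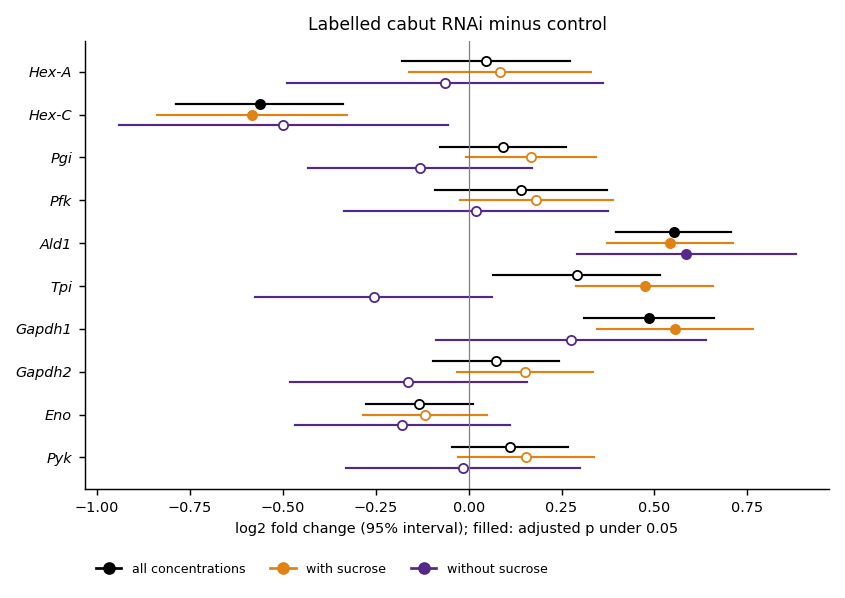
Log2 difference of normalized reads, libraries labelled cabut RNAi minus control (horizontal axis), with 95% intervals, for each glycolytic gene over all concentrations (black), with sucrose (orange) and without sucrose (purple); filled points have a limma adjusted p under 0.05. Hex-C sits at -0.56 and Ald1 at 0.55 over all concentrations, and Tpi is filled only with sucrose, at 0.47.

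The deposited table separates Ald1 transcripts by their 3' ends. The gene lies on the minus strand, per the BDGP6 annotation, where transcripts RB, RC and RD and transcripts RE, RH and RI use last exons that the other set's exons miss; in dm3 the 3' ends of the RB and RH rows lie 1308 bases apart. The values above are those of the downstream end, which RB, RC and RD share. The upstream end, read from the row of RH and RI, held 394 and 441 normalized reads without sucrose in libraries labelled cabut RNAi, 303 and 343 at 25%, 277 and 322 at 50%, and 355 and 322 at 100%. In control libraries it held 617 normalized reads without sucrose, 305 at 25%, 258 at 50% and 215 at 100%. The control library without sucrose stood far above the others, and at 50 and 100% the control library lay below both libraries labelled cabut RNAi.

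When every distinct transcript row was tested, an alternative added after the data were seen, the upstream end did not pass between labels (0.09 ± 0.13, log2 and SE; limma adjusted p = 0.707, where 15.8% of rows were called). That value averages over differences of opposite sign: with sucrose the upstream end was higher under the RNAi label, at 0.31 ± 0.09 (limma adjusted p = 0.0336), and without sucrose it stood at -0.57 ± 0.16 (adjusted p = 0.0738). The call with sucrose was lost in 8 of 24 alternatives, among them DESeq2 (adjusted p = 0.171) and leaving out the control library at 100% (0.15, adjusted p = 0.490), that at 50%, or, for cabut RNAi, replicate 2 at 25 or 50% or replicate 1 at 100%. With sucrose against none, over both labels, it was lower, with a difference of -0.68 ± 0.14 (limma adjusted p = 0.00750; 2.23% of rows called), while the downstream end in the same fit was at -0.15 ± 0.08 (adjusted p = 0.519). In control libraries alone, where 1.21% of rows were called, the upstream difference was -1.26 ± 0.15 (adjusted p = 9.57e-04), and in libraries labelled cabut RNAi it was -0.38 ± 0.10 (adjusted p = 0.108). The difference between these responses, 0.88 ± 0.18, did not pass (adjusted p = 0.0879), though it did in limma with robust estimation (adjusted p = 0.0307). Without the control library at 0% sucrose the sucrose difference of the upstream end was -0.38 and no longer passed (adjusted p = 0.228), nor did it in limma without the trend (adjusted p = 0.146), where the difference in control libraries did not pass either (adjusted p = 0.0561).

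Within each library, the ratio of downstream to upstream Ald1 reads ran from 1.79 to 2.32 in libraries labelled cabut RNAi and from 0.822 to 2.26 in control libraries. It ran from 1.59 to 2.32 in the 9 libraries with sucrose and from 0.822 to 1.85 in the 3 without. The lowest ratio was that of the control library without sucrose, and the label ranges overlapped. The log2 ratio differed by 0.46 between labels (two-sided exact permutation within concentration, p = 0.0370; adjusted p = 0.0556) and by 0.68 between sucrose and none (exact permutation within label, p = 0.0268; adjusted p = 0.0536), and neither passed after adjustment over the 6 ratio tests. Without the control library at 0% sucrose these differences were 0.23 and 0.21.

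**Figure D3:**
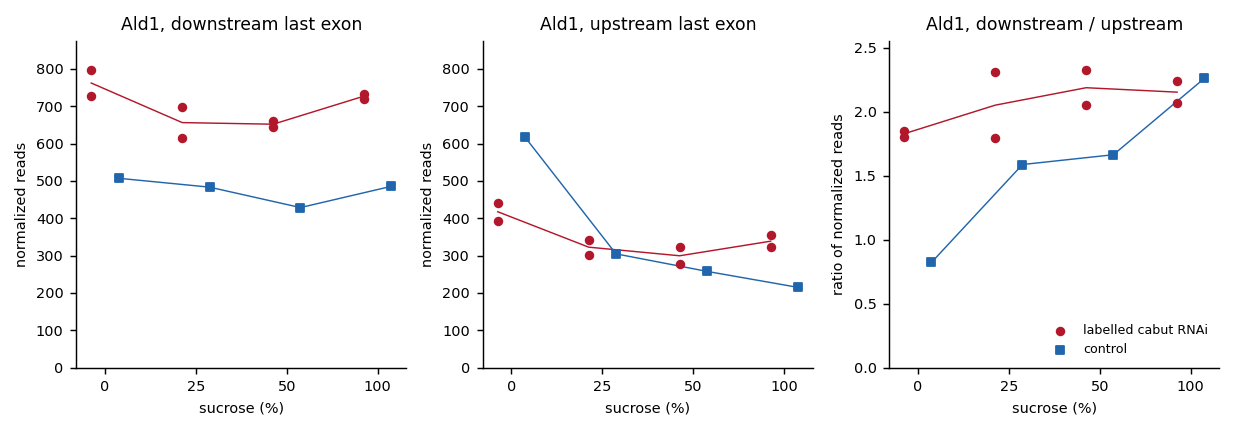
Normalized reads of the Ald1 downstream last exon (left), the upstream last exon (middle) and their ratio (right) by sucrose concentration in percent, for libraries labelled cabut RNAi (red circles, lines through their means) and control libraries (blue squares). The downstream end separates by label at every concentration, while the upstream end of the control library without sucrose reaches 617 normalized reads.

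Sucrose against none, over both labels, gave a call in 1 of the 10 genes. Pgi was lower with sucrose, and 2.15% of all tested genes were called in that contrast. In libraries labelled cabut RNAi it held 457 and 535 normalized reads at 25%, 473 and 501 at 50%, and 482 and 497 at 100%, against 574 and 587 without sucrose. In control libraries Pgi held 418, 453 and 439 normalized reads at 25, 50 and 100%, against 635 without sucrose. All 9 values with sucrose lay below all 3 without. The share of all tested genes that separate likewise by sucrose was not counted.

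The Pgi difference was -0.34 ± 0.09 (log2, SE; limma adjusted p = 0.0467), near the threshold. It was negative in each of 27 alternatives and lost its call in 15 of them, with adjusted p up to 0.434; leaving out any library except the second one labelled cabut RNAi at 25% was enough. In that contrast Hex-C stood at -0.32 ± 0.12 (limma adjusted p = 0.252), Tpi at -0.23 ± 0.12 (adjusted p = 0.505) and Ald1 at -0.15 ± 0.08 (adjusted p = 0.520). With all distinct Ald1 rows summed, Ald1 was lower with sucrose, at -0.46 (adjusted p = 0.0148), and Pgi no longer passed (adjusted p = 0.0509). That sum counts the upstream end of Ald1 more than once, so it is not a level of the whole gene. The Tpi value was 0.02 without the control library at 0% sucrose. The other 6 genes lay between -0.08 and 0.08.

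Within the libraries labelled cabut RNAi, none of the 10 genes passed for sucrose by limma, edgeR or DESeq2, where limma called 1.97% of all genes. An unadjusted limma p under 0.05 was held by 2 members, Pgi and Hex-C, and by 670 of all 6552 tested genes. Pgi differed there by -0.24 ± 0.09 (log2, SE; limma adjusted p = 0.353), Hex-C by -0.34 ± 0.14 (adjusted p = 0.398) and Tpi by 0.02 ± 0.10 (adjusted p = 0.976).

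Within the control libraries, where 3 libraries with sucrose were set against 1 without and 1.16% of all genes were called, Tpi was lower with sucrose. Its 439.7, 577 and 416 normalized reads at 25, 50 and 100% stood against 776 in the library without sucrose, a difference of -0.71 ± 0.14 (log2, SE; limma adjusted p = 0.0287). The Tpi call was lost in 6 of 25 alternatives (adjusted p up to 0.170), among them leaving out either library labelled cabut RNAi at 50% or the control library at 25 or 100%. Pgi differed by -0.54 ± 0.13 in control libraries (limma adjusted p = 0.0799), and passed in 3 of the 25 alternatives.

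None of the 10 genes passed the test of the difference between the sucrose responses of the labels by limma, edgeR or DESeq2. Limma called 0.229% of all genes in that test. An unadjusted limma p under 0.05 was held by Tpi alone of the 10, and by 691 of all 6552 tested genes. The Tpi difference of 0.73 ± 0.17 (log2, SE; limma adjusted p = 0.169) and the Pgi difference of 0.30 ± 0.16 (adjusted p = 0.537) rest on the single control library without sucrose. The remaining members ranged from -0.09 for Hex-C to 0.31 for Gapdh2.

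**Figure D4:**
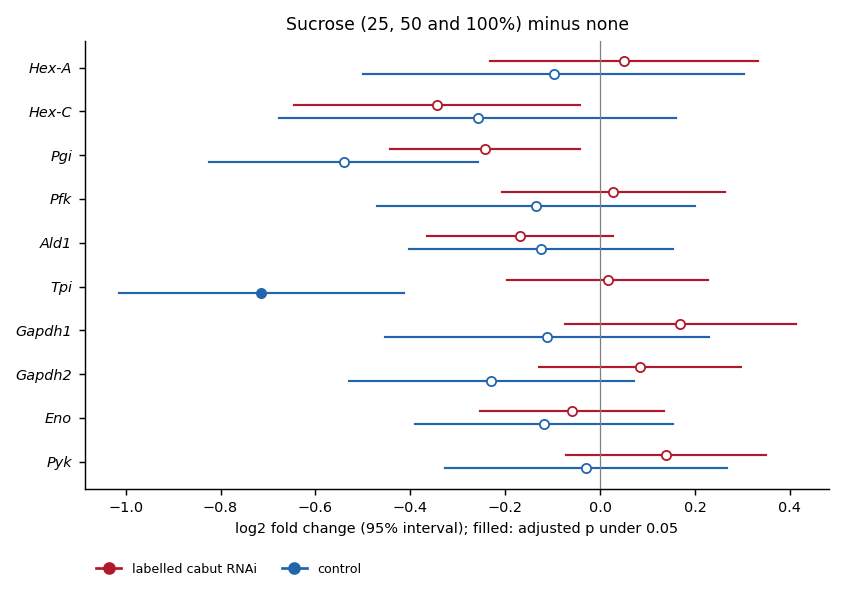
Log2 difference of normalized reads, libraries with sucrose (25, 50 and 100%) minus libraries without, with 95% intervals, for each glycolytic gene in libraries labelled cabut RNAi (red) and control libraries (blue); filled points have a limma adjusted p under 0.05. Tpi in control libraries, at -0.71, is the only filled point.

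From 25 to 100% sucrose, no member passed the test for a trend with concentration. The slope over the 9 libraries, per step to a concentration 2 times as high, ran from -0.16 ± 0.08 for Hex-C to 0.12 ± 0.09 for Hex-A (log2, SE). No gene in the table passed (0% called by limma; 272 genes and 0 members had an unadjusted p under 0.05), and edgeR and DESeq2 called no member.

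Patterns over the 12 libraries were compared by the root mean square difference of log2 values, each gene centred on its own mean, a description with no test. Pyk and Gapdh2 were each other's nearest members, at 0.082, and Ald1 and Gapdh1 likewise at 0.188. Hex-C was farthest from the set, 0.332 from Eno, its nearest member. Among the 2320 other genes compared, the nearest to Pyk was COX4 (0.060), to Gapdh2 ATPsynF (0.059), to Pgi Irc (0.049) and to Ald1 cathD (0.087). For Eno it was CG34200 (0.083), for Tpi CG34228 (0.093) and for Pfk CG7409 (0.099). For Hex-C it was CG33307 (0.113), for Gapdh1 CG42319 (0.116) and for Hex-A Zasp66 (0.122). A search over 2320 genes favours short distances, as does a small spread such as that of Pyk, Gapdh2 and Eno.

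Around the pathway, the remaining glycolytic enzymes and paralogs were mostly at or near 0: of 12 genes listed, 7 were listed at 0 in every library and 2 were tested. Pglym78 is among those listed at 0; it encodes the phosphoglycerate mutase that glycolysis needs, and a 0 in the table is not read here as a lack of its transcript. For the counts of pathway genes, the shares called among all tested genes are again 15.5% by label and 2.15% with sucrose. Pgk, which encodes phosphoglycerate kinase, averaged 365 ± 39.3 normalized reads in libraries labelled cabut RNAi and 373 ± 36.5 in control libraries (SD, n = 8 and n = 4), and its label difference was -0.03 ± 0.09 (log2, SE; limma adjusted p = 0.869). Pfrx, which encodes the enzyme that sets the level of a fructose bisphosphate that activates phosphofructokinase, was higher by label at 0.30 ± 0.10 (limma adjusted p = 0.0383).

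In gluconeogenesis, the reverse path, 3 of 4 genes were higher in libraries labelled cabut RNAi, and 3 of 4 were lower with sucrose. The gene fbp, whose product undoes the phosphofructokinase step, held 285 to 363 normalized reads in libraries labelled cabut RNAi; control libraries held 154, 185 and 197 normalized reads at 25, 50 and 100% sucrose, against 374 without. Its label difference was 0.55 ± 0.14 (log2, SE; limma adjusted p = 0.0101). In control libraries fbp was lower with sucrose, at -1.07 ± 0.17 (adjusted p = 0.0103), against -0.05 ± 0.12 in libraries labelled cabut RNAi (adjusted p = 0.933), and the test of that difference did not pass (adjusted p = 0.0966). For the phosphoenolpyruvate carboxykinase genes Pepck1 and Pepck2 it did, at 1.77 ± 0.19 (adjusted p = 0.00222) and 2.68 ± 0.44 (adjusted p = 0.0279). Pepck1 held 797 to 1608 normalized reads in libraries labelled cabut RNAi; control libraries held 383, 357 and 380.4 normalized reads at 25, 50 and 100% sucrose, against 1853 without. By label Pepck1 was 2.11-fold higher (1.08 ± 0.20; limma adjusted p = 6.00e-04) and Pepck2 5.78-fold higher (2.53 ± 0.40; adjusted p = 1.19e-04). With sucrose Pepck1 (-1.13 ± 0.22; adjusted p = 0.00461), Pepck2 (-2.40 ± 0.43; adjusted p = 0.00245) and PCB, which encodes pyruvate carboxylase (-0.34 ± 0.09; adjusted p = 0.0453), were lower. As with Tpi, Pgi, Eno and the upstream end of Ald1, the control values of fbp and Pepck1 without sucrose were the highest of the 12 libraries.

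At the exits of glycolysis, the glycerol phosphate shuttle, which reoxidises the NADH made by glyceraldehyde phosphate dehydrogenase, had 2 of its 3 tested genes higher by label. Gpdh1, the cytosolic dehydrogenase that draws on the triose phosphates, held 236 to 570.3 normalized reads in libraries labelled cabut RNAi, against 90.4 to 143 in control libraries, 3.15-fold higher without overlap (log2 difference 1.65 ± 0.14; limma adjusted p = 6.18e-08). Within the libraries labelled cabut RNAi it was also higher with sucrose, by 0.78 ± 0.11 (adjusted p = 0.00313). Gpo1, the mitochondrial partner, was higher by label at 0.61 ± 0.12 (adjusted p = 7.72e-04) and higher with sucrose at 0.62 ± 0.13 (adjusted p = 0.00718).

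Of 8 genes for the fate of pyruvate, 1 was higher by label, a share near the 15.5% of all genes: Pdhb, a subunit of pyruvate dehydrogenase, at 0.30 ± 0.08 (limma adjusted p = 0.0148). Ldh, which encodes lactate dehydrogenase, held 9.48 to 24.0 normalized reads in libraries labelled cabut RNAi, against 13.4 to 20.5 in control libraries, and passed neither by label (-0.30 ± 0.22; adjusted p = 0.420) nor with sucrose (-0.66 ± 0.24; adjusted p = 0.239). Of 8 genes for sugar entry 3 were tested, and the trehalose transporter Tret1-1 was higher by label at 0.29 ± 0.08 (adjusted p = 0.0138). None of the 3 regulators ERR, sima and Hph passed in either contrast by limma, and label differences ran from -0.29 for Hph to 0.08 for ERR.

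**Figure D5:**
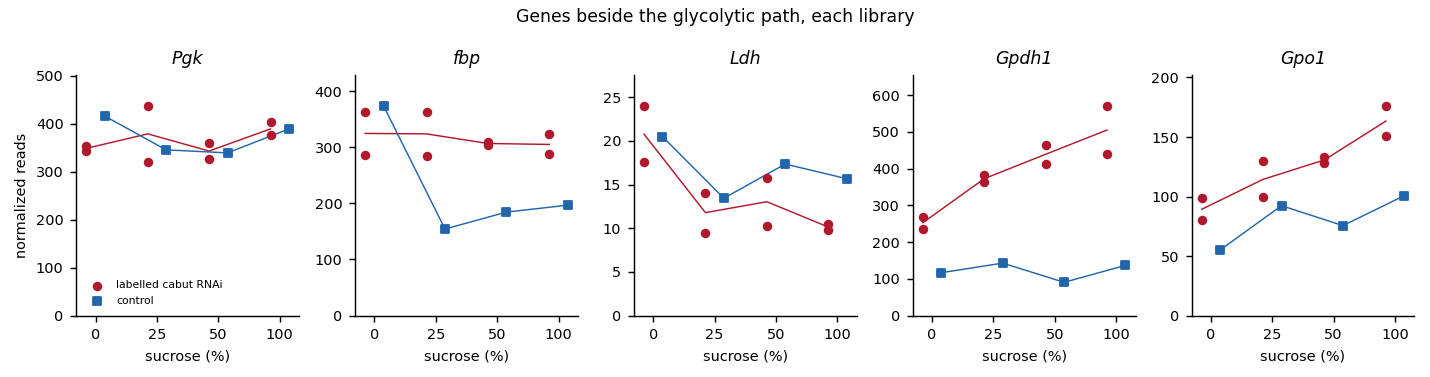
Normalized reads of Pgk, fbp, Ldh, Gpdh1 and Gpo1 by sucrose concentration in percent, for libraries labelled cabut RNAi (red circles, lines through their means) and control libraries (blue squares). Gpdh1 separates the labels at every concentration, from 90.4 to 143 normalized reads in control libraries, while the Pgk values intermix.

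Some cell type markers differed by label beside the glycolytic genes; of all tested genes 6.78% were higher and 8.71% lower. Of the tested markers, 4 of 7 for glia were higher in libraries labelled cabut RNAi (nrv2, Eaat1, Gat and alrm). The other 3 glial markers did not pass and lay below 0, with moody at -0.26, Gs2 at -0.18 and repo at -0.07 (log2). For muscle 4 of 9 were higher (Mhc, Mlc1, Prm and wupA) and 1 was lower (sls). For fat body 2 of 7 were higher (Lsp2 and Lsd-1) and 3 lower (Yp1, Yp2 and Yp3), and for photoreceptors 3 of 12 were higher (Rh5, inaC and ninaC) and 3 lower (Rh3, Rh4 and trpl). For neurons 0 of 6 were higher and 2 lower (nSyb and Syt1). The other 4 neuron markers did not pass, with futsch at 0.22, Snap25 at 0.19, Appl at 0.18 and Syx1A at -0.25 (log2). For hemocytes 1 of 5 was higher (Hml). The summed level of the glial list was 2011 to 2474 normalized reads in libraries labelled cabut RNAi, against 1889 to 2019 in control libraries. That of muscle was 1317 to 2251 in libraries labelled cabut RNAi, against 1287 to 1424 in control libraries, and that of fat body was 26435 to 60152 in libraries labelled cabut RNAi, against 53869 to 76012 in control libraries. The photoreceptor sums were 39491 to 45494 under the RNAi label and 42243 to 47087 in controls, the neuron sums 993 to 1060.0 under the RNAi label and 908 to 1105 in controls, and the hemocyte sums 198 to 262 under the RNAi label and 186 to 213 in controls. All of these ranges overlapped between labels. Every listed marker other than Fbp1 of the fat body had reads, those of photoreceptors and neurons included, as the tissue label has it. No gene of the pathway and marker lists that passed changed its sign under quantile, median-of-ratios or equal-total scaling. Under equal totals, however, 24.9% of all tested genes were called, most of them higher. The marker counts there became 5 higher and 0 lower for photoreceptors, 3 higher and 1 lower for neurons, and 7 higher and 0 lower for muscle. The part of these shifts in the differences of Hex-C, Ald1 and Gapdh1 was not tested. With sucrose against none, where 2.15% of all tested genes were called, 2 of 7 fat body markers were higher (fit and Lsd-1). No marker of the other lists passed by limma in that contrast.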

How the data were processed

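RNA from fly heads was extracted with TRI reagent and poly(A) selected after fragmentation, per the labels' protocols, so reads lie near 3' ends. The submitters' processing notes name TopHat, Bowtie and the genome build dm3; which counter was used, whether strand was used and how values were normalized is not given. Without strand, overlapping genes cannot be told apart: Hex-C overlaps CG8079, Gapdh1 overlaps PolZ1 and the transcripts of Eno reach Rrp40, with means of 5.66, 3.47 and 11.8 normalized reads.

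The deposited table holds a normalized signal for 21081 transcript rows in 12 libraries. Whole reads were recovered for 100% of values (tolerance 0.01), so the authors scaled each library by a single factor. The 2 rows that name no gene were left out. Of 14009 CG numbers 13536 matched a RefSeq symbol, and for each gene the transcript row with the largest average stood for it (12548 genes had 1 distinct row). Tests thus rest on the spread between libraries; nothing says that reads carry molecular identifiers.

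Tests used limma 3.58.1 in R 4.3.3 with an intensity trend on log2(value + 1), for genes with a mean of at least 10; fold changes on that scale understate changes of low genes. Alternatives were pseudocounts of 0.5 and 5, no filter, a minimum mean of 50, quantile and median-of-ratios scaling, summed rows, no trend, robust estimation, the replicate block, a design without the covariate, tests of the recovered reads by DESeq2 1.42.0 and edgeR 4.0.16, and leaving out each library; scaling to equal total reads, tests of every row, and the ratios were added after the data were seen. Scripts were tested on simulated data. Chi-square per degree of freedom between replicates of a group was 2.89 to 6.24, above counting noise. The members, the lists and the rule for named genes were chosen with earlier results of these data known. By that rule all members were named, with list genes that passed by label or with sucrose over all 12 libraries. Ldh, Pgk, Pglym78 and fbp were named in any case. The regulators, Fbp1, and the glial and neuron markers that did not pass were named outside the rule.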

Additional observations from a re-analysis of the deposited data

How the results depend on the processing

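The number of the 10 glycolytic genes called stayed within 1.5 times the value reported in each alternative but the following. Between labels 3 were called, with 5 under quantile normalization, 8 under equal total reads and 3 to 4 when a library was left out. Between labels with sucrose 4 were called, with 8 under equal total reads and 3 to 4 when a library was left out. Between labels without sucrose 1 was called, with 0 under no filter, summed rows, no trend and edgeR, 2 under equal total reads, and 0 to 1 when a library was left out. With sucrose against none 1 was called, with 0 under no filter, no trend and no label term. It was 0 to 1 when a library was left out. Under summed rows it was again 1, but Ald1 in place of Pgi, and that sum counts the upstream end of Ald1 more than once. With sucrose in control libraries 1 was called, with 0 under no filter and no trend, 2 under summed rows, robust estimation, the replicate block and equal total reads, and 0 to 1 when a library was left out. No member was called in any alternative of the dose trend, of sucrose within cabut RNAi or of the difference of responses. The share of all tested genes called also moved with the alternative. Between labels it was 14.3% under quantile normalization and 24.9% under equal total reads, and between labels with sucrose 22% under equal total reads. Where that share is not given, a changed count of members cannot be set against it.

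Signs turned in 14 cases (log2 differences). Among the reported values that turned, only 1 had passed, that of Ald1 between labels without sucrose. Its turned value, -0.12 with summed rows, did not pass. That sum holds the upstream end in the rows of both RE and RH, and so counts it more than once. Between labels, leaving out a library gave -0.0549 to 0.0869 for Hex-A, -0.0213 to 0.228 for Pfk and -0.0913 to 0.315 for the upstream end of Ald1, each lowest without the control library at 100%; Hex-A also turned, to -0.01, without replicate 1 of cabut RNAi at 100%. Eno was 0.0347 under quantile normalization and 0.0774 under equal total reads. Between labels without sucrose, Tpi was 0.0229 under equal total reads. For sucrose, leaving out a library gave -0.34 to 0.0156 for Tpi, highest without the control library at 0%; within cabut RNAi it gave -0.0338 to 0.065, with 3 libraries turning the sign, and Tpi was -0.00438 under quantile normalization and -0.0626 under equal total reads. The cause of these changes was not tested.

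Replicate numbers were not treated as pairing the libraries: deviations of same-numbered libraries correlated at 0.27, 0.28 and 0.33 among 0, 25 and 50%, but at 0.0006, 0.02 and -0.35 where 100% was one of the pair. With the number as a block, the count of members called moved only for sucrose in control libraries, to 2, and the upstream end of Ald1 passed for the difference of responses (adjusted p = 0.0495) and between labels without sucrose (adjusted p = 0.0416). Calls that rest on 1 control library, the shallowest of which gave 54 reads for Pfk, are limited by both depth and number. Without sucrose, all tested genes split 91 higher and 124 lower, against 97 and 71 under quantile normalization and 351 and 64 under equal total reads.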
